A study of Mus musculus with 30 samples.

Results

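The genes described here encode the RNA polymerase subunits, the Mediator subunits and the TATA-binding protein associated factors (TAFs) of the mouse. A gene was a member when it was protein-coding and its GENCODE symbol began with Polr1, Polr2, Polr3, Med and a digit, or Taf and a digit, and the rule used no measured value. It found 81 of the 55401 genes in the deposited tables: 28 polymerase genes, 30 Mediator genes and 23 TAF genes. Nuclear RNA was sequenced from mouse embryonic stem (ES) cells in 15 groups of 2 libraries, spread over 4 count tables, to ask what the loss of SRCAP does to transcription. SRCAP is the ATPase of a remodelling complex that places the histone variant H2A.Z in chromatin.

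The SYAT line was made from CGR8 ES cells. Both Srcap alleles carry YPet and an auxin-inducible degron (AID) tag, and a lentivirus driven by the EF1a promoter supplies the receptor OsTir1. IAA, an auxin, leads to degradation of the tagged protein. The time course compares SYAT controls, kept in Auxinole, an inhibitor of the receptor, with cells given 500 µM IAA for 2 h, 4 h, 6 h and 8 h. SYAT cells were also sorted in early G1 (EG1) or late G1 (LG1) after 1 h of IAA or none. These cells also carried mCherry fused to a mitotic degron, a tag that is degraded in mitosis. The paper names Auxinole as the control condition of SYAT cells. Parental CGR8 cells, which have no degron, were left untreated or given 500 µM IAA for 4 h. SYAT cells that express wild-type SRCAP (wtSRCAP) or an ATPase-dead mutant (cdSRCAP) as mCherry fusions received doxycycline (1 µg/mL) for 24 h. They were given IAA in the last 4 h or stayed in Auxinole as controls. Both lines were sorted for similar, high mCherry signal just before collection. SYAT, wtSRCAP and cdSRCAP are each a single selected clone or sorted line, and all cells were held in serum and LIF for the 3 days before collection. The replicate libraries are not stated to come from separate clones, so the p-values measure the spread between these libraries only.

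In the nucleus, RNA polymerase I makes the ribosomal RNA precursor, RNA polymerase II makes messenger RNA precursors, and RNA polymerase III makes transfer RNA, 5S RNA and other short RNAs. The 3 enzymes have their own large subunits and share several small ones. TFIID, built of TBP and TAFs, recognises the promoter, and Mediator links activators bound at enhancers to polymerase II. Mediator has a head, a middle and a tail on the scaffold subunit Med14, and a separable kinase module holds Med12 and Med13. Related TAF proteins serve in the coactivator SAGA and, for polymerase I, in the promoter factor SL1.

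Exon counts summed to between 45617992 and 60214521 a library in CGR8 cells and between 12236493 and 26672402 elsewhere. All 81 members passed the filter on low counts in the exon columns of every table. The summed level of 10 ES cell markers was between 2069 and 5437 CPM, against at most 165 for any of the lists of primitive endoderm, mesendoderm, neural, trophoblast and fibroblast markers. In the SYAT time course 4 of the 10 ES cell markers were higher at 6 h at an unadjusted p under 0.05 (median log2 fold change 0.32), and no ES cell marker was lower. Of the tested markers of other cell types, also in exons and at an unadjusted p under 0.05, 1 of 5 primitive endoderm markers was higher at 4, 6 and 8 h, 1 of 3 mesendoderm markers at 4 and 6 h, 1 of 3 neural markers at 2, 4 and 8 h, 1 of 3 trophoblast markers at all 4 times and 1 of 4 fibroblast markers at 4, 6 and 8 h. At 6 h the medians of these lists were 0.41, 0.38, 0.47, 1.06 and 0.63. In wtSRCAP cells 2 of 3 mesendoderm markers and 1 of 3 neural, trophoblast and fibroblast markers each were higher (medians 1.17, 0.20, 1.32 and 1.48), and in cdSRCAP cells 1 of 3 mesendoderm and neural markers each, with 1 of 3 primitive endoderm markers lower. Summed levels of the primitive endoderm, mesendoderm, trophoblast and fibroblast lists were at most 24.4, 22.3, 10.5 and 48.6 CPM in any library. The part of these in the results below was not tested. Srcap RNA itself, at 876 normalized exon counts in SYAT controls (SD 85.6, n = 2) and 971 after 4 h of IAA (SD 7.27, n = 2), is no check of the degron, which acts on the protein. Within the time course the pair of libraries at 6 h stood apart. Their log2 counts differed across genes with an SD of 0.604, against 0.254 to 0.370 in the other pairs of that table, so 6 h values are given with this in view. The intron columns do not hold the same thing in every table. Genes with a single exon had intron counts equal to 93.4 to 94.4% of their exon counts in the SYAT time course and 88.4 to 90.3% in EG1 libraries, but 0% in CGR8, LG1, wtSRCAP and cdSRCAP libraries. Intron values are therefore read as unspliced RNA only in the latter, and exon values lead the description.

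**Figure D1:**
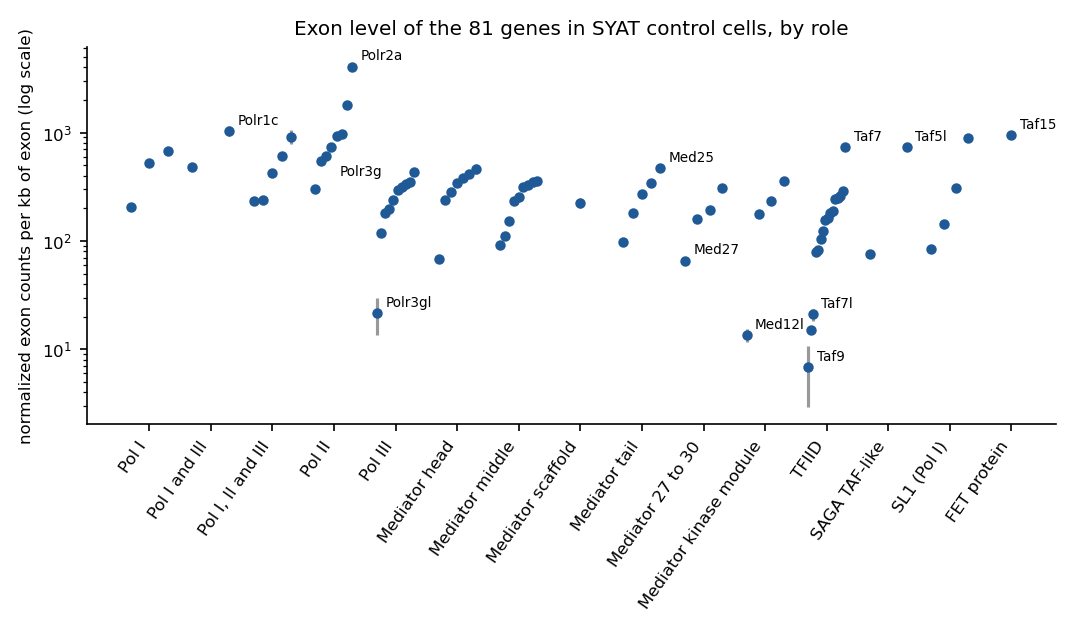
Normalized exon counts per kb of exon (vertical log scale) for the 81 genes in SYAT control cells, grouped by role. Points are means of 2 libraries and vertical lines join the 2 libraries. Polr2a stands above all others at 4065, and Taf9 is lowest at 6.84.

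Members spanned a wide range of levels. In SYAT control cells Polr2a, the catalytic subunit of polymerase II, was highest at 4065 normalized exon counts per kb (SD 294, n = 2). Polr2m followed at 1778, Polr1c, shared by polymerases I and III, at 1036, and Polr2b, the second largest subunit of polymerase II, at 961. Per kb, the 8 polymerase II genes had a median level of 830.8, against 266 for the 10 polymerase III genes, 160 for the 16 TFIID genes and 255 for the 9 genes of the Mediator middle. Polr1c (SD 152) and Polr2b (SD 0.719) did not differ beyond their spread. At the low end lay the paralogues Polr3gl, Taf7l, Taf9b and Med12l at 13.5 to 21.6, and Taf9 at 6.84, whose locus overlaps Ak6 so that its reads cannot be assigned with certainty.

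Of the paralogue pairs, the same member was the higher in all 6 control groups in 6 of 8 pairs. Per kb of exon, Polr3g was 2.33 to 15.5 times Polr3gl, the other form of that polymerase III subunit. Med12 was 7.22 to 15.2 times Med12l, Taf7 19.1 to 63.8 times Taf7l, and Taf4 1.75 to 2.22 times Taf4b. Taf5l, of SAGA, was 3.04 to 6.07 times Taf5, of TFIID, while Taf6 was 1.23 to 2.51 times Taf6l. The order of Med13 and Med13l depended on the cells. Med13 was the lower of the pair in wtSRCAP and cdSRCAP controls (ratios 0.664 and 0.703) and in CGR8 controls was level with it (0.995), while in the 3 SYAT control groups its ratio was 1.31 to 1.54. The order of Taf9 and Taf9b also varied, both at low level.

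After IAA in SYAT cells, some Mediator genes and Polr3f, Polr3c, Taf6, Taf3 and Taf2 had lower exon counts at 2 or more times. The threshold was an unadjusted p under 0.05. The times share their controls, and the share of all genes that repeat in this way is not given here. None of the 8 polymerase II genes reached an unadjusted p under 0.05. At the shares of all genes below, few of 8 genes would, so this is not read as a trait of polymerase II. No member was called by edgeR's quasi-likelihood test at any of the 4 times (absolute log2 fold change over 0.5 and adjusted p under 0.05). The background was as low: 0% of all 19205 genes tested were called at 2 h and 0% at 4 h, 0.0677% at 6 h and 0.00521% at 8 h. At an unadjusted p under 0.05, lower members numbered 4 at 2 h (2.55% of all genes tested were lower in this sense), 16 at 4 h (6%), 13 at 6 h (8.21%) and 12 at 8 h (8.44%). As shares of the 81 members these are 4.94%, 19.8%, 16.0% and 14.8%. Higher members numbered 0 at 2 h (1.37% of all genes), 0 at 4 h (3.09%), 5 at 6 h (7.93%) and 2 at 8 h (5.13%). Among 9995 protein-coding genes with a mean of over 100 counts the lower shares were 3.31%, 8.24%, 10.5% and 11.0%, and 77 members lie in that range. The members' median log2 fold change was -0.05, -0.06, -0.02 and -0.06, against 0.00, 0.02, 0.01 and 0.03 for all genes.

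DESeq2, run on the same counts, called 0 members at 2 h (0.0223% of all genes fitted), 0 at 4 h (0.343%), 6 at 6 h (1.59%) and 3 at 8 h (0.995%). At 6 h these were Med9, Med23, Med24, Polr3f and Taf6, which were lower, and Taf4b, which was higher. At 8 h they were Med9, Med24 and Taf6, again lower. Leaving out any 1 of the 4 libraries of a comparison lowered the count of lower members at unadjusted p under 0.05 to between 6 and 9 at 4 h, to 7 without either control and to 9 or 11 without an IAA library at 8 h, and to between 0 and 2 at 2 h. At 6 h the count was 11 or 12 without a control, 19 without the first IAA library and 20 without the second. Without the first 6 h library edgeR called 21 members, 13 lower and 8 higher, and 22 members were higher at unadjusted p under 0.05. Without the second it called 0, and 2 were higher. With 1 library left in a group, that library is assumed to vary like the others. The shares of all genes in these fits are not given here, so the counts are not read as results about the members.

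**Figure D2:**
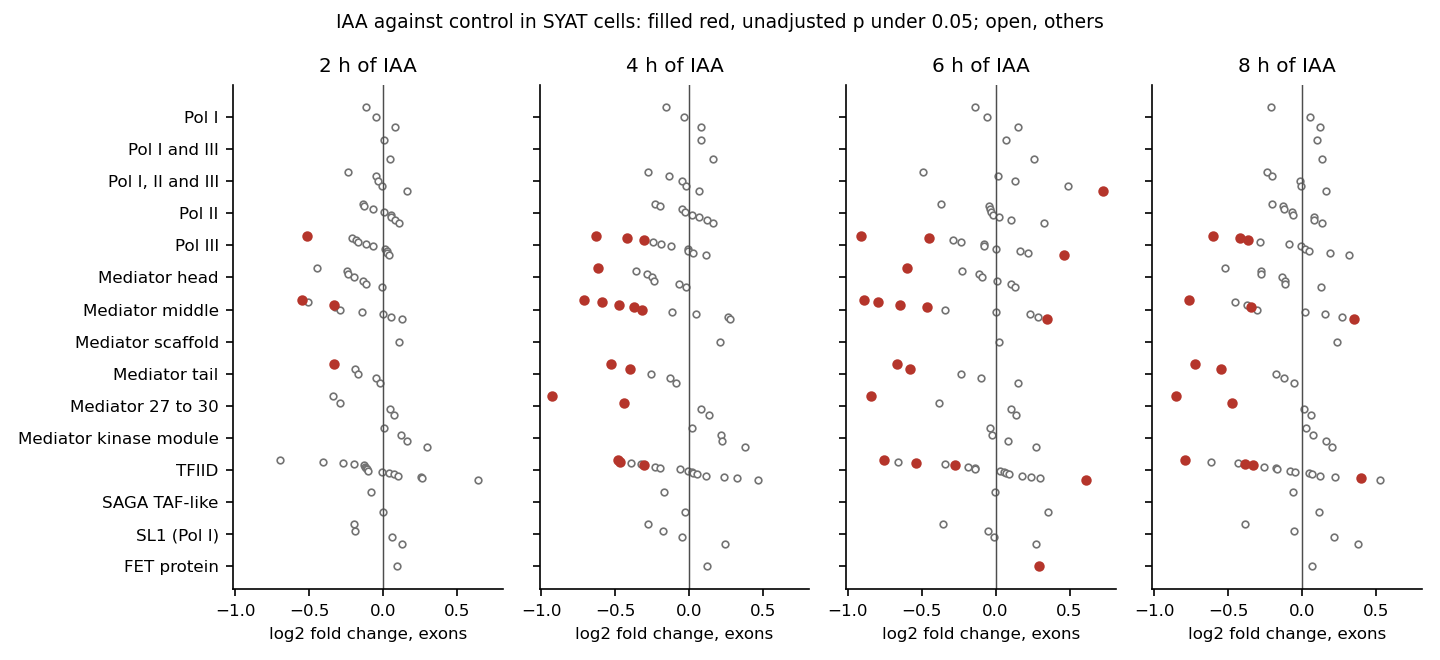
Log2 fold change of exon counts, IAA against control in SYAT cells, for each of the 81 genes (points) by role (rows) at 4 times (panels). Filled red points have an unadjusted p under 0.05. At 4 h the 16 filled points all lie below 0, and 10 of them are Mediator genes. No polymerase II gene is filled in any panel, and at the shares of all genes few in so small a group would be.

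By role, the counts at unadjusted p under 0.05 were as follows. Of the 30 Mediator genes, 3, 10, 8 and 6 were lower at 2, 4, 6 and 8 h, and 0, 0, 1 and 1 higher, with medians of -0.14, -0.19, -0.07 and -0.12. Of the 28 polymerase genes, 1, 3, 2 and 3 were lower and 0, 0, 2 and 0 higher (medians -0.02, -0.03, -0.01 and -0.01). Of the 23 TAF genes, 0, 3, 3 and 3 were lower and 0, 0, 2 and 1 higher (medians -0.08, -0.05, -0.00 and -0.05). Differences between the roles were not tested. Within Mediator, the 9 middle genes held 5 of the 10 lower genes at 4 h and the 5 tail genes held 2. All 7 head genes were below 0 at 2 h and at 4 h, with medians of -0.20 and -0.25, but only Med11 reached an unadjusted p under 0.05 at 4 h. The kinase module gave no such gene at any time, but at the shares of all genes few of 4 genes would reach that p. Its 4 genes lay between 0.00 and 0.30 at 2 h and between 0.02 and 0.38 at 4 h.

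13 members were lower at an unadjusted p under 0.05 at 2 or more of the 4 times: Med1, Med9, Med19, Med23, Med24, Med27, Med30, Med31, Polr3c, Polr3f, Taf2, Taf3 and Taf6. The share of all genes that repeat in this way is not given here, so the count of 13 has no background beside it. In each of the 13, both IAA libraries lay below both controls at all 4 times. They were chosen on these same libraries, which favours such separation, so it adds no support. Such separation was common. Of the 81 members, 37 lay below in this way at 2 h (21% of all genes tested), 39 at 4 h (24.1%), 26 at 6 h (22.2%) and 32 at 8 h (24%), which are 45.7%, 48.1%, 32.1% and 39.5% of the members. Above both controls lay 13 at 2 h (18.6% of all genes), 12 at 4 h (21.7%), 13 at 6 h (21.5%) and 11 at 8 h (20.9%). The times share their controls.

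Med9, a subunit of the Mediator middle, was lower from 2 h on. Its normalized exon counts were 606 and 606 in the controls, 384 and 444 at 2 h, 376 and 363 at 4 h, 362 and 335 at 6 h, and 398 and 316 at 8 h. The IAA libraries lay well below the controls throughout. The highest of them was a 2 h library at 444, but the other 2 h library, at 384, was below an 8 h library at 398. The log2 fold changes were -0.55 (SE 0.17, adjusted p = 0.98), -0.71 (adjusted p = 0.21), -0.80 (adjusted p = 0.077) and -0.76 (adjusted p = 0.097).

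Med23 and Med24 belong to the Mediator tail, which receives many activators. Med23 counts were 1848 and 1805 in controls, 1429 and 1475 at 2 h, 1250 and 1277 at 4 h, 1212 and 1230 at 6 h, and 1199 and 1305 at 8 h. The libraries of each pair were close, and the level was nearly the same from 4 h on, at log2 fold changes of -0.53 (SE 0.12), -0.58 and -0.54. Med24 moved later, with 2153 and 2274 in controls, 1936 and 1998 at 2 h, 1675 and 1674 at 4 h, 1311 and 1476 at 6 h, and 1321 and 1360 at 8 h. Its log2 fold change at 8 h was -0.72 (SE 0.12, adjusted p = 0.068). Med15, Med16 and Med25, the other tail genes, lay between -0.26 and 0.15 at the 4 times.

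Med27, which connects the tail to the core, was low in level and had the largest relative difference of the Mediator genes at 4 h. Its counts were 209 and 227 in controls, 157 and 187 at 2 h, 108 and 121 at 4 h, 111 and 132 at 6 h, and 105 and 136 at 8 h. From 4 h on all 6 libraries were below both 2 h libraries. The log2 fold change at 4 h was -0.93 (SE 0.23, adjusted p = 0.21), so that 52.5% of the control level was left. Med30 was 73.7% of the control at 4 h and 72.1% at 8 h, whereas Med28 and Med29, listed with it by number, lay between 0.01 and 0.14 on the log2 scale.

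Med1, the large middle subunit contacted by nuclear receptors, was 3055 and 3257 in controls and between 2141 and 2673 in all 8 IAA libraries. Its log2 fold changes were -0.33, -0.32, -0.46 and -0.35 (SE 0.13), and it was the only member at an unadjusted p under 0.05 in all 4 comparisons besides Med9, Med23 and Polr3f. Med19 and Med31, small subunits near the hook and knob of the middle, had their lowest values at 6 h, -0.64 (SE 0.18) and -0.89 (SE 0.25). In both, the second 6 h library was the lowest, at 385 counts for Med19 and 87 for Med31. Med10 was at 77.1% of control at 4 h. Med26, which docks elongation factors, was instead 127.4% of control at 6 h and 127.7% at 8 h (unadjusted p = 0.044 and 0.042). The scaffold gene Med14 lay between 0.03 and 0.24 (SE 0.24), with libraries that differed widely at 6 h, 2544 and 1479.

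**Figure D3:**
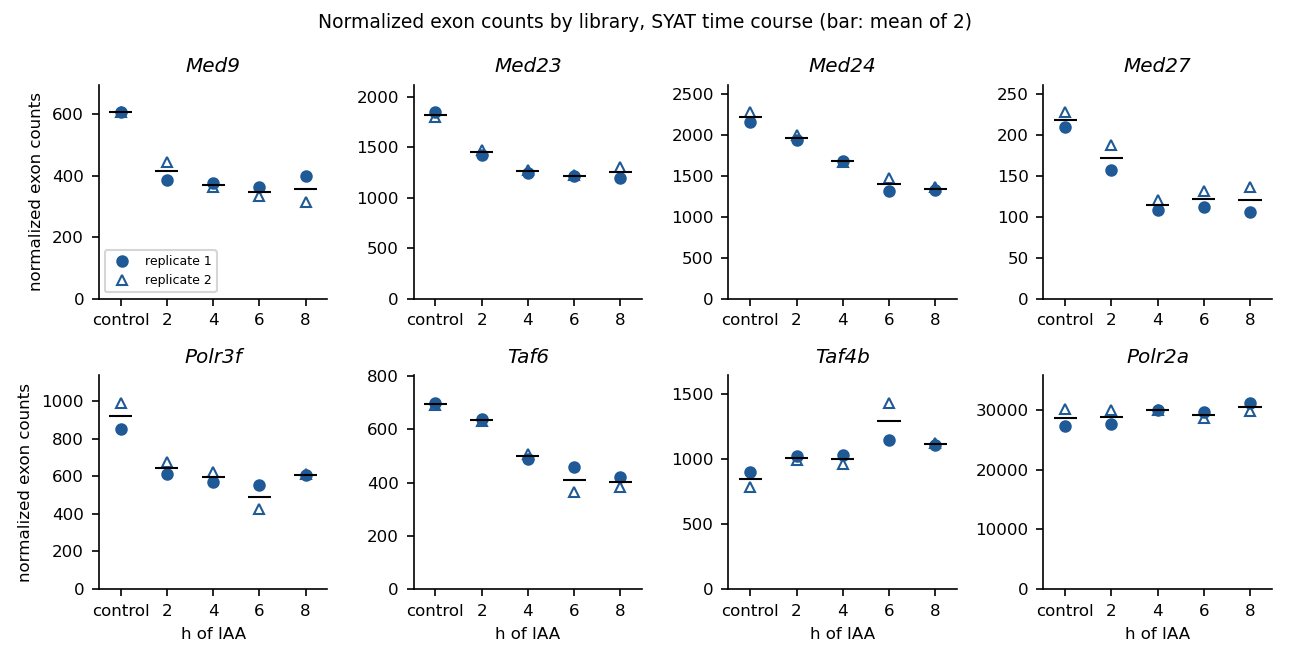
Normalized exon counts (vertical axes, from 0) of 8 genes in each SYAT library, control and 2, 4, 6 and 8 h of IAA. Circles are replicate 1, triangles replicate 2 and bars the means of 2. Med9, Med23, Med24, Med27, Polr3f and Taf6 have every IAA library below both controls, Taf4b every one above, and Polr2a stays between 27253 and 31162.

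Among the polymerases, the lower genes belonged to polymerase III. Polr3f, which encodes a subunit of the initiation subcomplex of that enzyme, had 849 and 989 counts in controls, 611 and 678 at 2 h, 567 and 620 at 4 h, 554 and 424 at 6 h, and 604 and 610 at 8 h. Every IAA library lay below both controls. The log2 fold changes were -0.51 (SE 0.17), -0.63, -0.91 (adjusted p = 0.068) and -0.60. Polr3c, its partner in the subcomplex, had 1081 and 1069 counts in controls, 941 and 970 at 2 h, 765 and 836 at 4 h, 736 and 839 at 6 h, and 791 and 814 at 8 h. Its log2 fold change was -0.42 at 4 h and -0.42 at 8 h (SE 0.13). Polr3b was at 80.8% of control at 4 h and Polr3k at -0.37 on the log2 scale at 8 h. The largest subunit gene Polr3a lay between -0.19 and 0.00, and Polr3g between -0.08 and 0.04.

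Polr2a had 27253 and 30195 counts in controls and 31162 and 29770 at 8 h, with log2 fold changes between 0.01 and 0.08 (SE 0.12). The 8 polymerase II genes together lay between -0.14 and 0.11 at 2 h, -0.23 and 0.16 at 4 h, -0.37 and 0.33 at 6 h, and -0.20 and 0.14 at 8 h. No such gene reached an unadjusted p under 0.05, but few of 8 genes would at the shares of all genes given above. Polr1a, the catalytic subunit of polymerase I, lay between -0.21 and -0.04. Of the 5 subunits shared by all 3 enzymes, Polr2e lay between -0.01 and 0.16, Polr2h between -0.21 and 0.13 and Polr2k between -0.49 and -0.24 (SE 0.31). Some values at 6 h came mainly from the second library of that pair. Polr2l, a small shared subunit, had 402 and 906 counts at 6 h, against 420 and 369 in controls, and Polr3e had 1681 and 2392, against 1472 and 1485. Polr2f had 1079 and 2020 at 6 h, for a log2 fold change of 0.49 (SE 0.23).

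Among the TAF genes, Taf6, whose product forms a histone-fold pair with TAF9 in TFIID, had 699 and 690 counts in controls, 637 and 632 at 2 h, 488 and 509 at 4 h, 458 and 365 at 6 h, and 421 and 383 at 8 h. Both libraries were close to the controls at 2 h and well below them later. The log2 fold changes were -0.13 (SE 0.16), -0.48, -0.76 (adjusted p = 0.074) and -0.79 (adjusted p = 0.083). Taf3, the subunit that reads trimethylated H3 lysine of active promoters, was at 72.4% of control at 4 h and 68.7% at 6 h. Taf2 was at -0.30, -0.27 and -0.33 on the log2 scale at 4, 6 and 8 h (SE 0.12). Taf4b, a paralogue of Taf4 expressed in germ cells and ES cells, was the gene with all IAA libraries above the controls, at 902 and 789 in controls and 1150 and 1432 at 6 h. Its log2 fold changes were 0.26, 0.24, 0.61 (SE 0.15, adjusted p = 0.10) and 0.40, while Taf4 lay between 0.04 and 0.24. Taf1, the largest TFIID subunit, lay between -0.19 and -0.01. Taf10 and Taf7, further TFIID subunits, lay between 0.02 and 0.30 and between 0.07 and 0.18. Taf5l of SAGA lay between -0.08 and -0.00.

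The 4 SL1 genes had no value at unadjusted p under 0.05 in this table. Taf1b lay between -0.38 and 0.06 (SE 0.20), and Taf1d had 7745 and 8022 counts in controls and 10628 and 9842 at 8 h (0.38, SE 0.26) but 10535 and 5096 at 6 h. Low-level genes had wide errors. Taf9b was -0.70 at 2 h (SE 0.35) and -0.62 at 8 h, Taf9 was 0.64 at 2 h (SE 0.58), and Taf7l ranged from -0.43 to 0.32. Taf15, an RNA-binding FET protein that copurifies with TFIID, was 122.4% of control at 6 h (unadjusted p = 0.048) and 104.8% at 8 h. Of the Mediator head genes, Med6 was at -0.60 at 6 h (SE 0.19), Med11 at -0.62 at 4 h (SE 0.24) and Med8 between -0.25 and -0.12, while Med22 stayed between -0.12 and 0.10.

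Promoter windows from RefSeq (GRCm38.p6, the build of mm10), 250 bases before to 50 after the start, were found for 68 of the 81 members, and for 9 of the 13 repeatedly lower ones. Those of 4 of the latter are printed 5′ to 3′, with matches to a searched motif in capitals. The 4 were picked by name and do not stand for the 9, and what the windows share was not measured. Med9 lies at chr11:59948206-59962205 on the plus strand, Polr3f at chr2:144527718-144541995 on the plus strand, Taf6 at chr5:138178617-138187451 on the minus strand and Med27 at chr2:29346819-29524793 on the plus strand. The windows are chr11:59947964-59948263, chr2:144527495-144527794, chr5:138187402-138187701 and chr2:29346560-29346859.
Med9: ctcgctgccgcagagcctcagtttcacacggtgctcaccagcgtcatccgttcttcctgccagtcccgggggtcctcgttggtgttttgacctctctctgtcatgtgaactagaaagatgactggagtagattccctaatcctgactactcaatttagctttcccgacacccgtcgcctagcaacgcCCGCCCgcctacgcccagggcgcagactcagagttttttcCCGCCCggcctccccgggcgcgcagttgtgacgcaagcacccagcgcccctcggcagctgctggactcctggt
Polr3f: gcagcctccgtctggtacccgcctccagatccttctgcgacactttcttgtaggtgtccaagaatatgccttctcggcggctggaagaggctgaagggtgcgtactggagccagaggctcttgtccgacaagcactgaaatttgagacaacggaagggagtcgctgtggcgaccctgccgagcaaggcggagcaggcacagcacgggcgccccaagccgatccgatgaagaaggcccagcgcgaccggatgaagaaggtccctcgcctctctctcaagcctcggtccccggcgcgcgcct
Taf6: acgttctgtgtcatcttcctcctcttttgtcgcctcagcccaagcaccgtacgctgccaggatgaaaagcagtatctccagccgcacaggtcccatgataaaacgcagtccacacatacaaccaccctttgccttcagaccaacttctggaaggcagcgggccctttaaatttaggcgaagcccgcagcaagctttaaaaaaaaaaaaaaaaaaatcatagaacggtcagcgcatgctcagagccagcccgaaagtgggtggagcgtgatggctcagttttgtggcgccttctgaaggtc
Med27: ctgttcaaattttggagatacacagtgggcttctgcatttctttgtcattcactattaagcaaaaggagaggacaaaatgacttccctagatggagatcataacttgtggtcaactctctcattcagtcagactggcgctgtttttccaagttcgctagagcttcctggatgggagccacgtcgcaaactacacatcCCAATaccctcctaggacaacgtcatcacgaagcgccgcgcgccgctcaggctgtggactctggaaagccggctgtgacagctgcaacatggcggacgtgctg
The Med9 window held the GC box (GGGCGG, here on the other strand) and the Med27 window the CCAAT box, and the windows of Polr3f and Taf6 held no searched motif. On either strand, the GC box was in 67.6% of the 68 member windows and 36.0% of all 27025 windows, and the ETS motif CCGGAAG in 33.8% and 9.16%. The E-box CACGTG was in 17.6% and 7.19%, CCAAT in 33.8% and 37.9%, and TATAAA in 11.8% and 14.2%. The remaining searched motifs were rare: AAGATGGCG (YY1) in 2.94% and 1.49%, TGACGTCA (CRE) in 1.47% and 1.85%, the NRF1 palindrome in 0% and 0.973%, and the BANP motif in 0% and 0.511%. Matches were counted separately for each motif, also where they overlapped. The windows of all genes were not limited to protein-coding or expressed genes, whereas the members are both. Differences from them are therefore not read as particular to the members. Of the 9 windows of repeatedly lower members, 44.4% held the GC box, 22.2% the ETS motif and 0% TATAAA, against 71.2%, 35.6% and 13.6% of the other 59. GC content had a median of 61% in the 9 and 59.3% in the 59. A protein-coding gene started in the opposite direction within 1000 bases in 4 of the 13 lower members (30.8%) and 13 of the other 68 (19.1%). Taf6, on chromosome 5, overlaps Ap4m1 on the other strand. Whether counting used the strand is not given in the sources used here, so reads of 37 members with an antisense neighbour cannot be assigned with certainty, 6 of the 13 among them. On their own strand 15 members overlap another gene, which a strand setting does not resolve. Of the 13, 4 are among these: Med23, Med24, Med27 and Polr3c. Taf1d is another of the 15.

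Cells that express SRCAP from a transgene gave the comparison in other libraries. In wtSRCAP cells no member was called by edgeR in exons (0.00523% of all genes), 6 were lower (4.48% of all genes) and 1 was higher (2.93%) at unadjusted p under 0.05, and DESeq2 called 0 (0.0423%). In cdSRCAP cells none was called (0% of all genes), 3 were lower (3.99%) and 0 higher (1.65%), and DESeq2 called 0 (0.0211%). Counts in these cells depended on single libraries. In wtSRCAP cells the lower members numbered 0 without the second control, 2 without the first control or the first IAA library and 13 without the second IAA library. In cdSRCAP cells they numbered 0 without the second control or the first IAA library, 1 without the second IAA library and 3 without the first control.

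As shares of the 81 members, the lower ones made up 7.41% in wtSRCAP cells and 3.70% in cdSRCAP cells, the latter close to the background. Mediator genes were 5 of the 6 and 3 of the 3, and no test set them against other roles. Med27 had 159 and 176 counts in wtSRCAP controls and 86 and 93 after IAA, and 148 and 182 in cdSRCAP controls and 75 and 103 after IAA. The log2 fold changes were -0.90 (SE 0.31, adjusted p = 0.64) and -0.89 (SE 0.30, adjusted p = 0.75), or 53.4% and 53.9% of control. Med9 had 368 and 346, then 242 and 272 in wtSRCAP cells, and 356 and 394, then 239 and 271 in cdSRCAP cells. Its groups did not overlap in either line, at log2 fold changes of -0.47 (SE 0.23) and -0.56 (SE 0.23). Med15 of the tail was -0.47 and -0.48 (SE 0.20), Med24 -0.52 and -0.42 (SE 0.21), Med1 -0.50 and -0.23 (SE 0.19) and Med10 -0.59 and -0.25 (SE 0.22). Polr3f had 607 and 799, then 285 and 541 in wtSRCAP cells (-0.76, SE 0.32), where the second IAA library came near the first control, and 662 and 741, then 420 and 550 in cdSRCAP cells (-0.53). Taf4b was 0.47 in wtSRCAP cells (unadjusted p = 0.037) and 0.27 in cdSRCAP cells (SE 0.19). Taf6 was -0.28 and -0.14 (SE 0.20). Med23 was -0.51 and -0.49 with an SE of 0.33, since its replicates differed widely, 999 and 1603 in wtSRCAP controls.

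**Figure D4:**
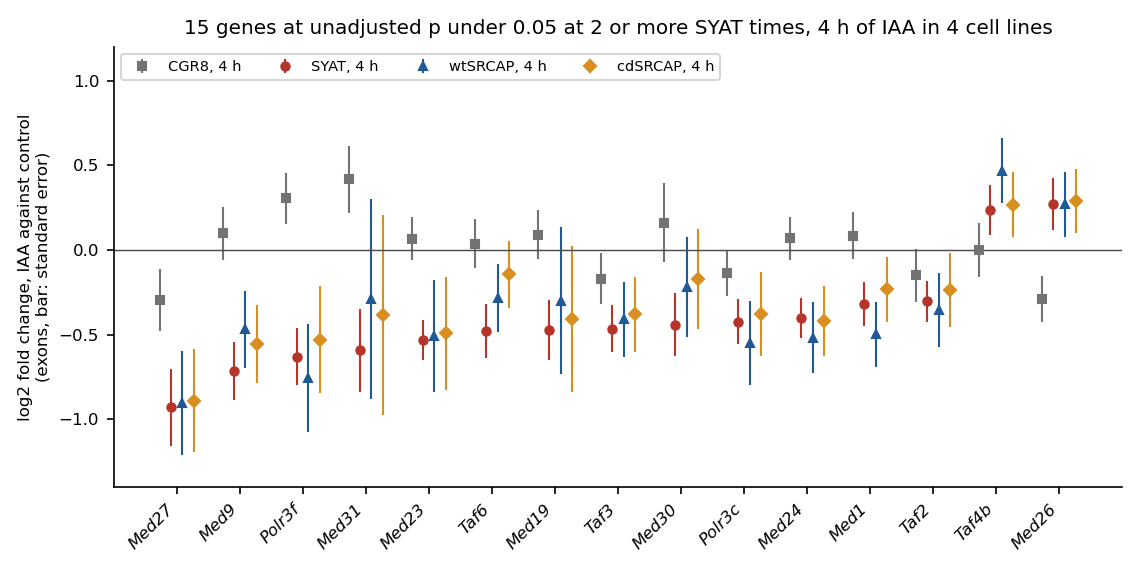
Log2 fold change of exon counts after 4 h of IAA (vertical axis, with standard error) for the 15 genes at unadjusted p under 0.05 at 2 or more SYAT times, in CGR8, SYAT, wtSRCAP and cdSRCAP cells. The 13 lower genes are below 0 in SYAT, wtSRCAP and cdSRCAP cells, and Med27 lies between -0.93 and -0.89 in these. The CGR8 values scatter around 0.

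The 16 members lower in SYAT cells at 4 h, chosen on those libraries, were below 0 in 16 of 16 cases in wtSRCAP cells and 16 of 16 in cdSRCAP cells, whose libraries took no part in the choice. The medians were -0.44 and -0.38. Among all 1127 genes chosen in the same way the share was similar, 96.5% in wtSRCAP cells and 97.0% in cdSRCAP cells, with medians of -0.58 and -0.59. In CGR8 cells 6 of the 16 were below 0 (56.5% of all genes so chosen), with a median of 0.05. In EG1 cells 10 of 16 were below 0 (64.8% of all genes) and in LG1 cells 8 of 16 (68.9%), at medians of -0.03 and -0.01.

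The response of cdSRCAP cells was compared directly with that of wtSRCAP cells. In the interaction no member was called in exons by edgeR (0% of all genes) or by DESeq2 (0%), and none had an unadjusted p under 0.05 (0.785% of all genes). For Med27 the difference of the log2 fold changes was 0.01 (SE 0.43), and for Med9 -0.09 (SE 0.32). With errors of this size, a difference as large as the Med9 log2 fold change itself was not detectable. Between the controls, cdSRCAP against wtSRCAP, 0 members were called by edgeR (0% of all genes), 0 by DESeq2 (0.0664%) and 0 had an unadjusted p under 0.05 (3.82%). After IAA, 0 were called by edgeR (0.00523%) and 0 by DESeq2 (0.00906%), and 2 were at an unadjusted p under 0.05 (5.03%). These were Taf1d, of SL1, at a log2 difference of 0.59 (SE 0.23), and Polr3gl at 1.05 (SE 0.43), both higher in cdSRCAP cells. Taf1d had 5469 and 7892 counts in wtSRCAP cells and 10172 and 9936 in cdSRCAP cells after IAA, and Polr3gl had 37.7 and 99.2, then 140.4 and 152.5. Taf1d overlaps other genes on its own strand, so its reads cannot be assigned with certainty.

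Intron counts of wtSRCAP and cdSRCAP cells, free of exonic reads, were tested for 70 members. No member was called by edgeR in wtSRCAP cells (0.299% of all genes) or cdSRCAP cells (0.236%). DESeq2 called 0 in wtSRCAP cells (0.919%) and 1, Med27, in cdSRCAP cells (0.775%). At unadjusted p under 0.05, 4 members were lower in wtSRCAP cells (6.61% of all genes) and 4 in cdSRCAP cells (7.49%), and 4 and 1 were higher (5.76% and 3.78%). Med27 introns had 562 and 764 counts in wtSRCAP controls and 462 and 407 after IAA, and 805 and 901 in cdSRCAP controls and 457 and 378 after IAA. The IAA libraries lay below the controls in both lines, at log2 fold changes of -0.61 (SE 0.19, adjusted p = 0.24) and -1.03 (SE 0.19, adjusted p = 0.066). Med23 (-0.50 and -0.43) and Taf3 (-0.49 and -0.33) were lower in both lines as well. Med24 was -1.01 in cdSRCAP cells (SE 0.30) and -0.24 in wtSRCAP cells (SE 0.30), at 114 counts or fewer. Med1 and Med15, lower in exons, were between -0.20 and 0.03 in introns. Polr3e (0.55, SE 0.14), Polr2c (0.82, SE 0.29), Polr2a (0.44, SE 0.17) and Taf4 (0.40, SE 0.16) had the higher intron counts in wtSRCAP cells. In the SYAT time course, where the intron column holds exonic reads as well, the same genes led as in exons, with Med24 at -0.76 (SE 0.13), Taf6 at -0.84 and Med9 at -0.82 at 8 h.

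Parental CGR8 cells, whose Srcap carries no degron tag, were also given IAA for 4 h. No member was called by edgeR in exons (0.00988% of all genes), 0 were lower (4.12% of all genes) and 7 higher (5.04%) at unadjusted p under 0.05, and DESeq2 called 1 (0.384%), Med21. Med21, a small subunit of the Mediator middle, had 1025 and 1056 counts in controls and 1465 and 2057 after IAA, a log2 fold change of 0.76 (SE 0.19, adjusted p = 0.54). Med6 of the head had 588 and 785, then 986 and 1284, at 0.72 (SE 0.21). The IAA libraries were above the controls in both genes. The IAA pair of Med21 and both pairs of Med6 were far apart. Med14 was 0.51, Polr2k 0.55, Taf1d 0.49, Taf1b 0.42 and Polr2e 0.37. Without the second IAA library 0 members were higher at unadjusted p under 0.05, and without the second control 11 were higher and 3 lower, with 8 called. The shares of all genes in these fits are not given here. Med9 was 1426 and 1698, then 1728 and 1616, Med23 was 0.07, Med24 0.07 and Taf6 0.04 on the log2 scale. Med27 was -0.29 (SE 0.18), with both IAA libraries below both controls. The groups were apart in opposite directions in CGR8 and SYAT cells at 4 h in 11 members, or 13.6%, against 8.04% of all genes, and this difference was not tested. In CGR8 introns 0 members were called by edgeR (0.022% of all genes) and 0 by DESeq2 (0.143%), and 3 were lower (2.68%) and 4 higher (2.57%) at unadjusted p under 0.05.

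After 1 h of IAA in sorted G1 cells, the median exon log2 fold change of the members was 0.01 in EG1 cells and 0.00 in LG1 cells. A looser rule was used there (absolute log2 fold change over 0.25 and unadjusted p under 0.05). In EG1 cells 0 members were called lower (1.03% of all genes) and 0 higher (0.19%), the values ranged from -0.24 for Med12l to 0.23 for Taf7l, and DESeq2 called 0 (0.239%). In LG1 cells 1 was called lower (0.733% of all genes) and 0 higher (0.285%), and DESeq2 called 0 (0.111%). This was Polr2k, a small subunit of all 3 polymerases, with 111 and 126 counts in controls and 75 and 92 after IAA, a log2 fold change of -0.50 (SE 0.22, unadjusted p = 0.048, adjusted p = 1). Polr2k lost this call without any 1 of the 4 libraries, at unadjusted p between 0.053 and 0.22. Med9 was -0.05 and -0.03 in EG1 and LG1 cells (SE 0.27), and Polr3f -0.21 in both (SE 0.17). LG1 against EG1 controls gave 0 members by edgeR in exons (0% of all genes), 0 by DESeq2 (0%) and 0 at unadjusted p under 0.05 (1.44%). The difference of the IAA responses gave 0 by edgeR (0%), 0 by DESeq2 (0%) and 0 at unadjusted p under 0.05 (0.699%).

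Introns of LG1 cells, free of exonic reads, gave 5 of 75 members called lower (2.7% of all genes), with 5 to 8 called when 1 library was left out. At the rule used for the other comparisons the count was 0, and with exon counts subtracted from intron counts it was 1. Only 6 to 14 members had intron counts at or above their exon counts in LG1 libraries. The subtraction therefore sets most members to 0 there and cannot test the calls. Med19 had raw intron counts of 74 and 35 in controls and 17 and 3 after IAA, a log2 fold change of -2.46 (SE 0.49). Polr3c had 210 and 180, then 92 and 88 (-1.05, SE 0.28), and Med24 198 and 167, then 132 and 102 (-0.61, SE 0.19). Med15 (-0.54) and Taf2 (-0.42) were the others, and each had an adjusted p of 1 by edgeR. In these 5 genes the exon log2 fold changes lay between -0.10 and 0.08. Over the 75 members the median intron log2 fold change in LG1 cells was -0.21, and no median of all genes is given beside it. In EG1 cells, whose intron column holds exonic reads, 2 members were called lower (1.89% of all genes). Taf12 had raw counts of 224 and 131, then 72 and 53 (-1.10, SE 0.30), and Med7 had 114 counts in the first control and 0 in the other 3 libraries, so its call rested on 1 library. Intron counts of LG1 and EG1 controls are not compared, because the columns differ in content.

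A list of 65 partner genes (general transcription factors, polymerase I and III factors, cyclins and kinases of Mediator, pausing and elongation factors) was measured in full. The list was chosen with earlier results of these data known. In SYAT exons edgeR called 0 partners at any time. At unadjusted p under 0.05, 1, 3, 8 and 6 were lower at 2, 4, 6 and 8 h, or 1.54%, 4.62%, 12.3% and 9.23% of the list, and 0, 0, 2 and 1 were higher. Beside the shares of all genes given above, those at 2 and 4 h were smaller, that at 6 h was larger and that at 8 h was close. Gtf3c3, of the polymerase III factor TFIIIC, was -0.21 at 2 h, -0.61 at 4 h, -0.86 at 6 h (SE 0.15, adjusted p = 0.065) and -0.76 at 8 h. Brf2, another polymerase III factor, was -0.95 at 2 h (SE 0.23), -0.67 at 4 h, -0.22 at 6 h and -0.62 at 8 h. Snapc5, of the complex that serves small nuclear RNA genes, was -0.88 at 6 h (SE 0.27) and -0.60 at 8 h. Ercc3, a helicase of TFIIH, was -0.50 at 8 h (SE 0.13), and Tbp was -0.56 at 6 h (SE 0.19). Cdk9, the kinase that releases paused polymerase II, was higher at 0.43 at 6 h and 0.32 at 8 h (SE 0.15). Of 21 pausing and elongation genes 0 were lower at unadjusted p under 0.05 at any SYAT time. In LG1 cells Tbp was the only partner called in exons, at -0.39 (SE 0.12, adjusted p = 1), and 4 of 63 were called lower in introns: Snapc1, Gtf2h2, Gtf3c3 and Ercc3, between -0.97 and -0.60. In exons of wtSRCAP and cdSRCAP cells edgeR called 0. At unadjusted p under 0.05, Hexim1 was 0.49 in wtSRCAP cells (SE 0.21), and Snapc2 was -0.92 (SE 0.25) and Brf2 -0.55 (SE 0.24) in cdSRCAP cells.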

How the data were processed

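Nuclear RNA was made into 30 strand-specific libraries. The authors used STAR for alignment (build mm10) and featureCounts, on GENCODE vM25, for counting. The deposited count tables hold raw whole-number counts per gene, for exons and for introns (gene body minus exons). The strand setting is not given in the sources used here. Gene types and coordinates were taken from GENCODE vM21 by gene ID.

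Each table and column was fitted once with edgeR 4.0.16 in R 4.3.3 (TMM, filterByExpr with minimum count 10 and minimum total 15, quasi-likelihood test), with Benjamini-Hochberg adjustment over all genes tested. Groups came from the labels, and contrasts stayed within a table. A gene was called at an absolute log2 fold change over 0.5 and adjusted p under 0.05, or, for 1 h of IAA in EG1 and LG1 cells, over 0.25 and unadjusted p under 0.05. DESeq2 1.42.0, with shrunken fold changes outside the interactions, was run as an alternative, and the tests were tried on simulated data. Normalized counts are scaled to the geometric mean of the TMM-adjusted library sizes of a table.

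The text names a fixed list of members, those past the call rule, the 3 highest and 3 lowest by exon log2 fold change per comparison among members with at least 100 counts, those repeated at 2 or more SYAT times, and Srcap. Members named beyond this were chosen after their values were seen. The members and lists were chosen with earlier results of these data known. Alternatives were no low-count filter, size factors, a stricter rule, only the groups compared, a replicate block, intron minus exon, and leaving out each library.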

Additional observations from a re-analysis of the deposited data

Results flagged for a closer look

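In 11 of the 81 members (13.6%, against 8.04% of the 18368 genes tested in both tables) both IAA libraries of CGR8 cells lay on one side of their controls at 4 h and both of SYAT cells on the other side, and 9 of them are among the genes named. The difference was not tested, because the cells lie in separate tables. As log2 fold changes of exon counts in CGR8 and SYAT cells, Med23 was 0.067 and -0.53, and Med24 was 0.070 and -0.40. Med31 was 0.42 and -0.59, Polr3f 0.31 and -0.63, and Med6 0.72 and -0.36. Polr2k was 0.55 and -0.28, and Taf1b was 0.42 and -0.28. Taf9b, at a low level, was 0.92 and -0.23. Med26 had the opposite signs, -0.29 and 0.27.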

How the results depend on the processing

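With 2 libraries a group, errors are wide and 1 library decides many calls. Of 307 counts of called members under the alternatives, 248 stayed within 1.5 times the value reported. The side of the threshold stayed the same in 5524 of 6034 gene values. Most reported counts are 0 and most genes are not called, so such agreement says little about how stable the calls are. In CGR8 exons (0 called) no low-count filter gave 2 and DESeq2 1, and in introns no filter gave 1. At 6 h in SYAT exons (0) no filter gave 4 and DESeq2 6, and at 8 h (0) they gave 2 and 3. DESeq2 called 1, 5 and 4 members in SYAT introns at 4, 6 and 8 h. In LG1 exons (1) the stricter rule, size factors, no filter, DESeq2 and the fit of only the groups compared each gave 0. In EG1 introns (2) the stricter rule gave 0, no filter 4 and intron minus exon 0, and in LG1 introns (5) the stricter rule gave 0 and intron minus exon 1. In LG1 libraries, whose intron counts are free of exonic reads, the subtraction sets most members to 0 and cannot test the calls. The intron interaction of LG1 and EG1 gave 1 with DESeq2. In cdSRCAP introns (0) no filter, DESeq2 and the fit of only the groups compared each gave 1, and cdSRCAP against wtSRCAP after IAA in introns gave 1 with no filter. At 6 h the Med31 intron log2 fold change of -0.82 became 0.12 for intron minus exon, and the cause was not tested.

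The replicate block uses the replicate numbers, and no label says whether libraries with the same number share a batch or a day. The correlation of same-numbered deviations was 0.285 in CGR8 exons, -0.011 to 0.761 in SYAT, 0.733 to 0.863 in G1 and 0.631 to 0.738 in wtSRCAP and cdSRCAP exons. Same-numbered libraries thus deviated alike in exons of G1, wtSRCAP and cdSRCAP cells. They also did in SYAT exons between groups other than 6 h (0.528 to 0.761). Between the 6 h group and the others the correlation was -0.011 to 0.304. The main fit holds no replicate term, and the reason for the shared deviations was not tested. With the replicate block edgeR and DESeq2 called 3 and 2 members in CGR8 exons, 10 and 9 at 6 h and 5 and 4 at 8 h in SYAT exons, and 17 and 18 in LG1 introns. With it edgeR called 5 in LG1 exons, 1 in wtSRCAP exons and 1 each in wtSRCAP and cdSRCAP introns, and DESeq2 called 3 at 4 h in SYAT exons, 1 in wtSRCAP exons, 2 in wtSRCAP introns, 1 in cdSRCAP introns, 1, 6 and 4 in SYAT introns at 4, 6 and 8 h, 5 in EG1 introns, 2 in the intron interaction and 1 in exons of cdSRCAP against wtSRCAP after IAA.

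Leaving out 1 library at a time, called members ranged from 0 to 8 in CGR8 exons, 0 to 12 in CGR8 introns, 0 to 21 in SYAT exons and 0 to 8 in SYAT introns at 6 h, 0 to 1 in LG1 exons, 0 to 4 in EG1 introns, 5 to 8 in LG1 introns, 0 to 1 in the intron interaction and 27 to 41 in introns of LG1 against EG1, where columns differ in content. Over all genes, edgeR called 7 lower and 6 higher at 6 h, and DESeq2 called 351 and 219. With no filter edgeR called 395 and 490, and with the replicate block 498 and 325. For the other replicate-block counts, and with 1 library left out, the counts over all genes are not given here. Those counts of members have no background beside them and are not read as results about the members.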
